A study of Homo sapiens with 6 samples.

Results

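MALAT1 and NEAT1, a pair of neighbouring long noncoding RNA genes on chromosome 11, and FRMD8, the coding gene next to NEAT1, were examined for lactylation of histone H4 at lysine 5 (H4K5la). ChIP-seq mapped the mark in PLC/PRF/5, a human liver cancer (hepatocellular carcinoma) cell line. Control cells were untreated, and the others were given 20 mM lactate for 24 h. Each group has 2 libraries with a peak list, numbered replicate 2 and replicate 3 in the labels, and nothing says whether these came from separate cultures. The 2 input libraries were not analysed here.

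The members are the peaks that touch the RefSeq spans of the 3 genes, 20 kb on either side, or the DNA between them. On hg38 this is the interval from 65348026 to 65526516 of chromosome 11, 178491 bp long. It held 14 peaks in control replicate 2, 17 in control replicate 3, 9 in lactate replicate 2 and 8 in lactate replicate 3. The lists hold 52215, 52959, 37951 and 38402 peaks in the same order. Peaks of the 4 libraries that shared at least 1 bp were merged into regions, which gave 17 regions here of 71122 in all. The peaks were chosen by position, and the 3 genes with their peaks in these same lists already known. The values are therefore a description, and no test was made of them.

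MALAT1 makes an abundant RNA that stays in the nucleus, gathers in nuclear speckles and is cut near its 3′ end to release the small mascRNA. NEAT1 makes a short and a long RNA from the same start, and the long form is the scaffold of paraspeckles, nuclear bodies that hold RNA-binding proteins. FRMD8 encodes a FERM domain protein that binds the iRhom proteins and helps to keep the protease ADAM17 at the cell surface. Histone lactylation is an acyl mark whose donor derives from lactate.

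A peak at the start of MALAT1 was the tallest of the interval by reads over its summit in either control library, and neither lactate library had a peak anywhere in that gene. The promoter sequences are shown to place that peak. They are RefSeq windows on GRCh38.p14, plus strand, and capitals mark bases that lie under a peak of any library. MALAT1 has 2 starts in the promoter table, 1307 bp apart, and FRMD8 has 1 window, given here up to its start only. The windows are chr11:65497488-65497787 and chr11:65498795-65499094 for MALAT1 and chr11:65386387-65386636 for FRMD8.
MALAT1 first start: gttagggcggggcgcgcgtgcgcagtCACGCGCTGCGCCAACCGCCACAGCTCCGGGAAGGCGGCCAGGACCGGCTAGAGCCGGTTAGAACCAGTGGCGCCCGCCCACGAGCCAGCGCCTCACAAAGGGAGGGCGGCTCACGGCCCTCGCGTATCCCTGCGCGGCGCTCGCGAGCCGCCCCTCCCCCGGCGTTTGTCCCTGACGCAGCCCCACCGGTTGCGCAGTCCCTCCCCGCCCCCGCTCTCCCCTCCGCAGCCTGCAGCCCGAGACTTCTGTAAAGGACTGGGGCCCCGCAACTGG
MALAT1 second start: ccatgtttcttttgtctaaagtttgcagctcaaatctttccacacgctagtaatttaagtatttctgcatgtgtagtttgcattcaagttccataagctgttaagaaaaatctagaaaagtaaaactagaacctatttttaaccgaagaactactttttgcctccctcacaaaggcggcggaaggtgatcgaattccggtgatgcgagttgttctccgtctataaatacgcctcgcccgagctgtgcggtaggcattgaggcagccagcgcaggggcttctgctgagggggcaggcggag
FRMD8 start: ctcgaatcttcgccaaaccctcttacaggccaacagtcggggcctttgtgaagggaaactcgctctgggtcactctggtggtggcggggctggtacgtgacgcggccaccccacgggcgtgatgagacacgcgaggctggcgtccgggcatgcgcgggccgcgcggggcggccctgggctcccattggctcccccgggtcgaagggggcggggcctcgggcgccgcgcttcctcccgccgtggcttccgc

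The capitals begin at base 27 of the first MALAT1 window and run to its end, 274 bases, all of them from control peaks. The second MALAT1 window and the FRMD8 window hold no base under a peak in any library. The first MALAT1 window is GC-rich, with 73.7% G or C and 37 CpG dinucleotides, and the second has 46.0% and 14. The median over all 35116 RefSeq promoter windows was 58.7% and 14. The letters GGGCGG, the core of a GC box, occur at 5 places in the first MALAT1 window on either strand, at 3 in the full FRMD8 window of 300 bases and at none in the second MALAT1 window. They occur in 45% of all windows. TATAAA, the TATA box letters, occurs only in the second of these MALAT1 windows, at base 221, and in 11.5% of all windows. ACGTG, a form of the core of a hypoxia response element, occurs in the FRMD8 window and in neither MALAT1 window, and in 21.4% of all. The other form of that core, GCGTG, was not counted, and on either strand it can be read in every window printed above. The windows are therefore not told apart by this element. CCAAT, like ACGTG, occurs in the FRMD8 window and in neither MALAT1 window, and in 34.6% of all. A match of letters is a description of the window and says nothing of a factor being bound.

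At MALAT1 (65497738 to 65506516), the control replicate 2 peak ran from 65497687 to 65498582 and was 896 bp wide. In control replicate 3 it ran from 65497514 to 65498614 and was 1101 bp wide. The narrower peak lay wholly inside the wider, with 896 bp shared. The peak began 51 bp before the first start in control replicate 2 and 224 bp before it in control replicate 3. Its summits were 620 and 624 bp after the first start and 687 and 683 bp before the second, so both summits lay between the 2 starts and 4 bp apart. The peak ended 463 and 431 bp short of the second start.

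The authors' fold enrichment of this peak over background was 14.3 in control replicate 2 and 19.3 in control replicate 3. By this value it ranked 679 of 52215 peaks and 60 of 52959 peaks, the top 1.30% and 0.113% of the lists. Reads over a summit are not listed, but they can be recovered from the deposited fold and -log10 p through the caller's formula. They came to 42 reads in control replicate 2 and 54 in control replicate 3, where the median over all peaks of either library was 23. The background at that summit, on the scale of the input, was 1.14 in both. The most common background of these lists was 0.837 and 0.836, held by 33.4% and 31.6% of their peaks. The lists of the control libraries thus place this peak far above their typical summit.

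With lactate, MALAT1 lay in a stretch without any peak of 88.0 kb in replicate 2 and 113.2 kb in replicate 3. The DNA after the MALAT1 peak was also without a peak in the control libraries, for 81.5 kb in replicate 2 and 53.5 kb in replicate 3. The nearest lactate peaks to the first start were 35054 and 51944 bp away. The number of reads over the MALAT1 start in these libraries is not known. Had their background there equalled the control value of 1.14, a summit of 9 reads in lactate replicate 2 or 10 in lactate replicate 3 would have reached the smallest -log10 p of their lists. Signal below that level may be present. Relative to control replicate 2, the recovered sequencing depth was 0.940 in control replicate 3, 0.785 in lactate replicate 2 and 0.886 in lactate replicate 3. The part of depth in the loss of peaks was not tested.

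**Figure D1:**
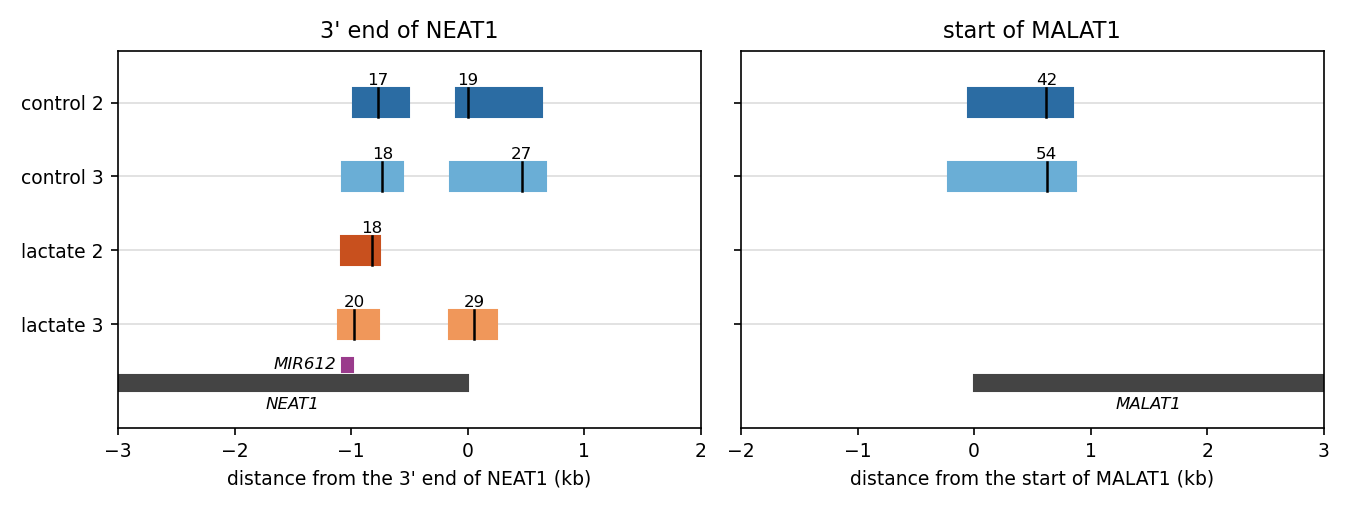
Peaks at the 3′ end of NEAT1 (left) and the start of MALAT1 (right), by distance in kb. Each bar is a peak of a library, the black line its summit and the number the recovered reads over that summit; the MALAT1 peak has 42 and 54 reads in the control libraries and no counterpart with lactate, while the peak over MIR612 has 17 to 20 reads in all 4 libraries.

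A region is called control-only where each control library had a peak and no lactate library did. The MALAT1 start is such a region, as are 14.6% of the 71122 merged regions. Among 34961 RefSeq promoter windows, 2.53% were control-only, the first MALAT1 window among them. Over gene spans with 1 kb on either side, 3.45% of 59098 RefSeq genes were control-only, MALAT1 among them. TALAM1, the antisense transcript gene of MALAT1, had the same pattern only through that added 1 kb, since the peak ended before it. These shares were the base rate for a gene already known to have the pattern, and nothing more is read from them.

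At NEAT1 (65422798 to 65445540), the mark lay at the 3′ end alone. No library had a peak over the first 21631 bp of the gene, and the stretch without a peak around its start was 26.2 and 25.9 kb long in the control and 29.0 and 39.4 kb in the lactate libraries. The part shared by the short and the long RNA was thus without a peak near its start, in both groups. All NEAT1 peaks fell within the last 2 kb of the gene or ran over its end.

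The first of these lies over MIR612, a microRNA gene inside NEAT1 (65444458 to 65444557). It was 487 bp wide in control replicate 2, 519 bp in control replicate 3, 333 bp in lactate replicate 2 and 350 bp in lactate replicate 3. The reads over its summit were 17, 18, 18 and 20 in that order, so the ranges of the unscaled reads met. Reads are not scaled for depth here or below. Depth was lower with lactate, at 0.785 and 0.886 of control replicate 2, against 0.940 in control replicate 3. Similar reads therefore do not mean an equal signal for the depth of each library. Its fold enrichment was 4.95 and 5.46 without lactate, against 7.39 and 7.30 with it, higher with lactate in both, although a fold from separately scaled lists does not measure a change. Both lactate peaks covered all 100 bases of MIR612, the control replicate 3 peak 93 of them and the control replicate 2 peak 5. Summits lay 769, 733, 821 and 976 bp before the NEAT1 end. Of all merged regions, 28.8% had a peak in all 4 libraries, as this one did in the lists as deposited.

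The second runs over the end of the gene. Its width was 744 and 827 bp in control replicates 2 and 3, 413 bp in lactate replicate 3 and not found in lactate replicate 2. Its summit reads were 19, 27 and 29, the highest with lactate, so presence split the lactate libraries and the reads did not order the groups.

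Within the gene, peaks covered 591 and 676 bp of NEAT1 in the control and 333 and 509 bp in the lactate libraries. The means were 633.5 ± 60.1 and 421 ± 124 bp (SD, n = 2), a ratio of lactate to control of 0.665. The groups did not overlap, but this order rests on weak control peaks. With a -log10 q of at least 5 the ratio turned to 1.25, and with the 37951 peaks of highest -log10 p in each library (equal numbers of peaks) to 5.36, because control replicate 2 kept no NEAT1 peak in either case and control replicate 3 kept 157 bp in the latter. No direction is therefore given for NEAT1. As a gene it counted among the 14.7% of RefSeq genes with a peak in all 4 libraries.

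**Figure D2:**
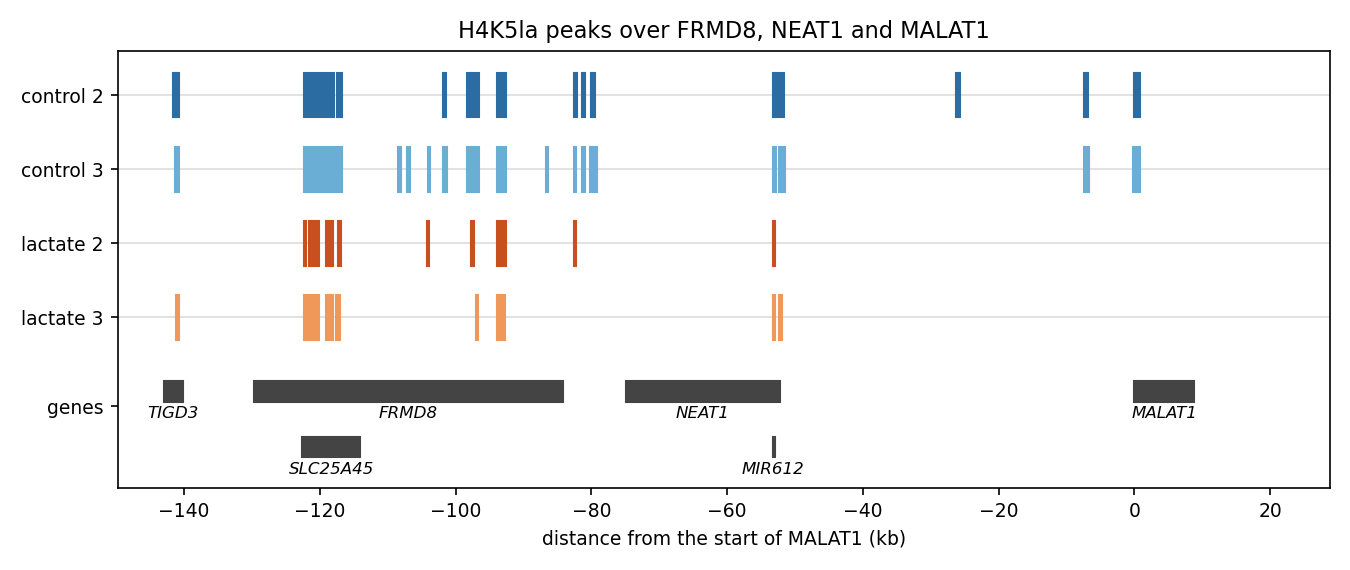
Peaks of the 4 libraries (bars, to scale) along the interval, by distance in kb from the start of MALAT1, with genes below. Peaks cluster over FRMD8 and SLC25A45 in all 4 libraries, NEAT1 has none before its 3′ end, and the DNA from there to MALAT1 holds control peaks with no lactate peak past the one that runs over the NEAT1 end.

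FRMD8 (65368026 to 65413525) held most of the marked DNA of the interval. It had 5 and 9 peaks without lactate and 7 and 5 with it, so these numbers overlapped. Peaks covered 8674 and 10715 bp in the control and 5356 and 5313 bp in the lactate libraries, with no overlap between the groups. The means were 9694.5 ± 1443 and 5334.5 ± 30.4 bp (SD, n = 2), a ratio of 0.550. The difference is larger than the spread between replicates of either group. No peak lay at the FRMD8 start of the promoter table (65386637), where the nearest was 5654 and 2572 bp away in the control and 5713 and 5911 bp in the lactate libraries.

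The widest marked stretch, from 65375363 to 65381034, lies upstream of that start. RefSeq models extend FRMD8 over it, and it also overlaps SLC25A45 (65375192 to 65383701), which encodes a mitochondrial carrier family protein, so the mark there cannot be assigned to either gene. Peaks of 4484 and 648 bp lay there in control replicate 2, and control replicate 3 had peaks of 2821 and 2477 bp. Lactate replicate 2 had 4 peaks, of 377, 1392, 1080 and 467 bp, and lactate replicate 3 had 3, of 2250, 1028 and 571 bp. Peaks covered 5132, 5298, 3316 and 3849 bp of this part of the FRMD8 span, a ratio of 0.687. The stretch was thus more broken up with lactate, yet held peaks in every library. Its summit reads reached 34 and 38 without lactate and 29 and 25 with it.

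From its start in the promoter table onward, FRMD8 had 3542 and 5417 bp under peaks in the control and 2040 and 1464 bp in the lactate libraries, a ratio of 0.391. Peaks in this part were intragenic. Regions at 65399443 to 65401237 and at 65403827 to 65405211 were found in all 4 libraries. At the former the summits had 33 and 32 reads without lactate and 18 and 25 with it, and the peaks were 1719 and 1795 bp wide against 422 and 355 bp. The lactate peaks there did not touch each other: that of replicate 2 ran from 65399998 to 65400419 and that of replicate 3 from 65400763 to 65401117, and only the wide control peaks join them into a region. At the latter the reads were 29 and 24 against 27 and 24 and the widths 1297 and 1385 bp against 1282 and 1109 bp. In the latter region the reads of the groups overlapped, and the widths did not.

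A further FRMD8 region, from 65395872 to 65396487, was control-only, with 33 and 32 reads. Control replicate 3 alone had peaks at 65389209, 65390554 and 65411020, with 29, 22 and 23 reads. A region at 65393553 had a peak in control replicate 3 (41 reads) and lactate replicate 2 (23 reads) alone. Replicates of a group thus differed at 4 of the 7 FRMD8 regions downstream of the start.

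Between FRMD8 and NEAT1, a stretch of 9272 bp, the control libraries each had 3 peaks, covering 1633 and 1668 bp. Lactate replicate 2 had 1 peak of 318 bp and lactate replicate 3 none, a ratio of 0.0963. This stretch lies upstream of the NEAT1 start. The regions at 65416335 to 65416743 and 65417528 to 65418542 were control-only, with 21 and 15 reads and with 18 and 34 reads. The third, at 65415141, had 17 and 14 reads in the control libraries and 13 in lactate replicate 2. With equal numbers of peaks neither control-only call held: the region at 65416335 kept a peak in control replicate 2 alone, that at 65417528 in control replicate 3 alone and that at 65415141 in lactate replicate 2 alone.

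Between NEAT1 and MALAT1, a stretch of 52197 bp, covered length was 1927 and 1529 bp in the control libraries, none in lactate replicate 2 and 254 bp in lactate replicate 3, a ratio of 0.0735. These sums take in the tail of the NEAT1 end peak and the bases of the MALAT1 peak before the gene. Inside the stretch, a region at 65490332 to 65490996 was control-only, with 18 and 15 reads, and another at 65471470 had a peak in control replicate 2 alone, with 19 reads. The former lost its control replicate 3 peak with a -log10 q of at least 5 and both peaks with equal numbers of peaks, so that call did not hold under either setting, and the latter region had no peak left under either. FAUP4, ENEMAL and LINC02736, which lie in this stretch, had no peak in or within 1 kb of them in any library. Neither had MASCRNA (the small RNA cut from MALAT1), the pseudogene SNRPGP19, nor DPF2, a chromatin remodelling subunit gene at the other edge. The 20 kb beyond MALAT1 held no peak in any library. In the flank before FRMD8, TIGD3 had a peak in 3 libraries, with 32 and 25 reads in the control and 39 in lactate replicate 3.

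**Figure D3:**
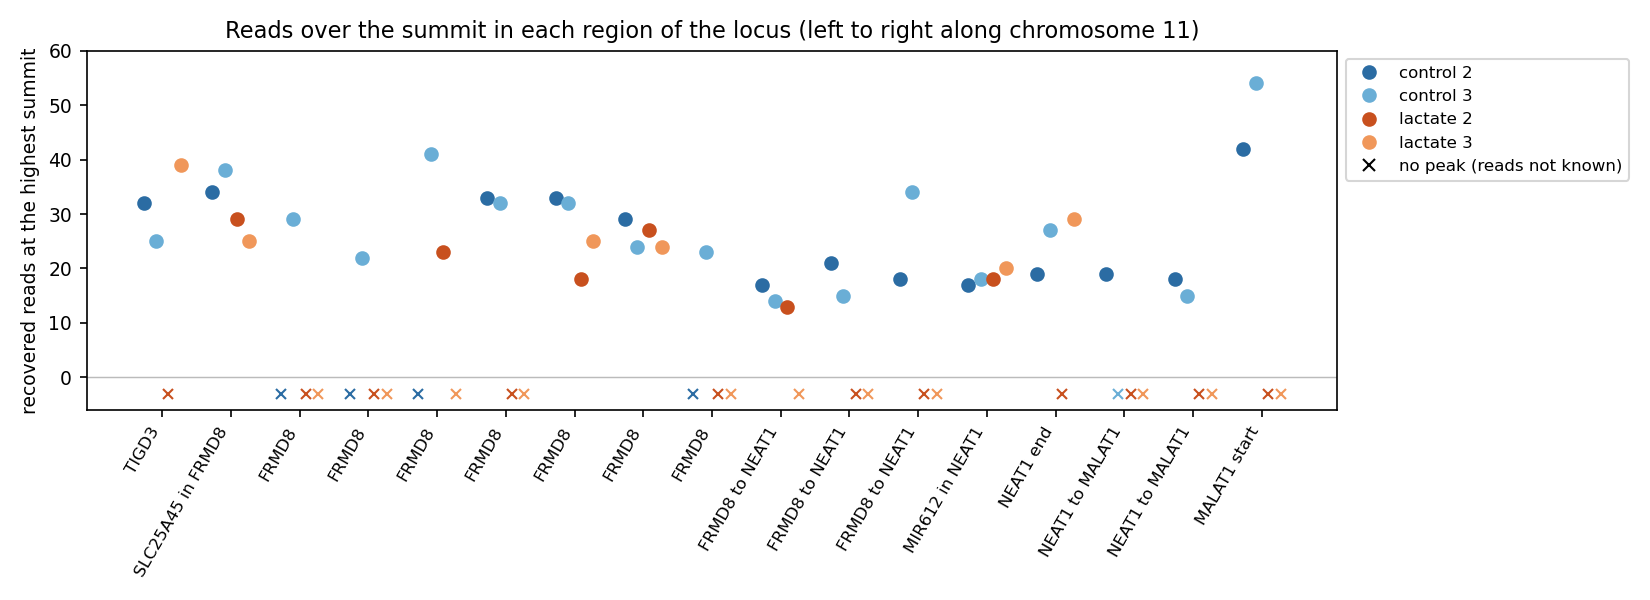
Recovered reads over the highest summit in each of the 17 regions, in order along the chromosome; crosses mark libraries with no peak, where the reads are not known. The MALAT1 start is highest with 42 and 54 reads in the control libraries, and where both treatments had peaks, as at MIR612 (17 to 20 reads), the reads with lactate were higher in some regions and lower in others. Reads are not scaled for depth, which was lower with lactate.

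Across the interval, peaks covered 14599 and 16126 bp in the control and 6007 and 6499 bp in the lactate libraries. The means were 15362.5 ± 1080 and 6253 ± 348 bp (SD, n = 2), a ratio of 0.407. In percent of the interval this is 8.18 and 9.04 against 3.37 and 3.64. Both lactate libraries lay below both control libraries, and the difference is larger than the spread between replicates. The same ratio was 0.530 over 1 Mb on either side, 0.513 over chromosome 11 and 0.534 over the genome. In the lists as deposited, the interval thus had a lower ratio than its surroundings. The ratios of the wider areas are given for those lists only. Whether that gap is particular to the locus was not tested.

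The number of peaks gave a ratio of 0.548, against 0.708 over 1 Mb on either side and 0.726 over the genome. With the 37951 peaks of highest -log10 p in each library it turned to 1.13, so the number of peaks has no stable direction here, while the covered length still fell short of the control, with a ratio of 0.576. That choice removed 8 control peaks in each library and no lactate peak.

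Of the 17 regions in the lists as deposited, 4 had a peak in all 4 libraries, 5 were control-only, none was lactate-only and 8 were mixed. In the same order, the shares over all 71122 merged regions were 28.8, 14.6, 2.75 and 53.9%. Of the 12 regions with a peak in both control libraries, 5 had none with lactate. Over the genome the same held for 26.7% of 38825 such regions. With so few regions, chosen as they were, these counts are given without a reading. The number of control-only regions was 2 with equal numbers of peaks (the MALAT1 start and the FRMD8 region at 65395872), 8 without control replicate 2 and 10 when a reciprocal overlap of 50% was required. With equal numbers of peaks the MIR612 region became lactate-only, with a peak in both lactate libraries and in neither control library. At a -log10 q of at least 5 it lost its peak in control replicate 2.

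**Figure D4:**
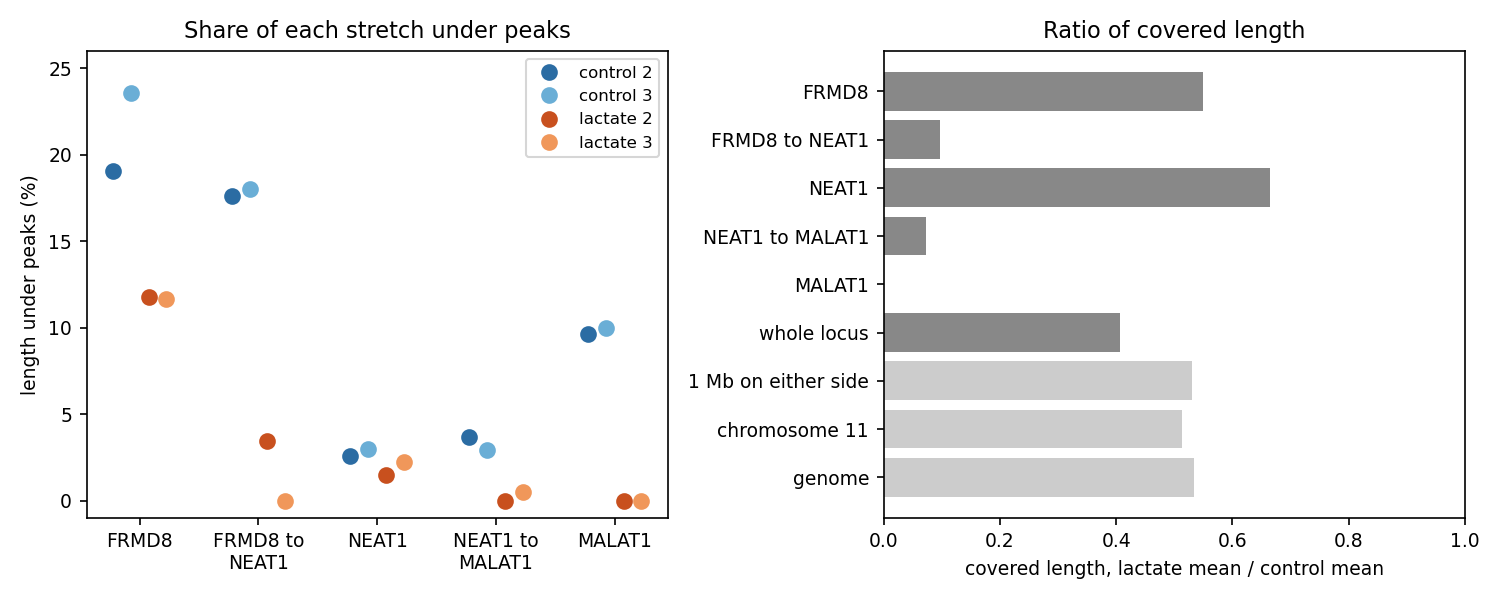
Left, percent of each stretch under peaks in each library (points). Right, ratio of the mean covered length with lactate to that of control, for the stretches and the whole interval (dark bars) and for wider areas (light bars); MALAT1 is at 0, the stretches between the genes are at 0.0963 and 0.0735 and FRMD8, at 0.550, is close to the genome, at 0.534.

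Genes whose covered shares were most like those of each member were found by Euclidean distance over the 4 libraries, with 1 kb added on either side and among genes 0.5 to 2 times as long. MALAT1, with 8.31% and 10.2% covered in the control libraries and none with lactate, lay nearest to the transcription factor gene FOXF1 (8.61% and 10.01%, none with lactate), the coding gene PIH1D1 and the long noncoding RNA gene LOC124905145 among 13457 genes. NEAT1, at 4.98, 5.44, 1.35 and 3.08%, lay nearest to PLA2G2C, GP6 and EFCAB12 among 13282. FRMD8, at 18.3, 22.6, 11.3 and 11.2%, lay nearest to SLC66A2, TTYH2 and EPN1 among 10811.

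Proteins that share the nuclear bodies of these RNAs were looked at as gene groups, counting a peak in the gene or within 1 kb of it. Of 20 paraspeckle protein genes, 4 had a peak in all 4 libraries, 1 was control-only, 4 were mixed and 11 had none. The 4 were SMARCA4, a chromatin remodelling ATPase, DAZAP1, RBM14 and HNRNPH3, which are RNA-binding proteins, and the control-only gene was NUDT21, a subunit of a cleavage factor for 3′ ends of messenger RNA. DAZAP1 had 3420 and 6104 bp under peaks in the control and 380 and 1244 bp in the lactate libraries. SMARCA4 and RBM14 also had less in both lactate libraries than in either control library. A lower mean with lactate was common among coding genes. Over the 7868 protein-coding genes with a peak in both control libraries, the median ratio of lactate to control was 0.507. The share of all genes without overlap between the groups was not counted, so nothing particular to these genes is read from their order. At HNRNPH3 the groups overlapped, with 1365 and 556 bp in the control and 960 and 877 bp in the lactate libraries. NUDT21 had 1098 and 957 bp in the control libraries.

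Of 25 nuclear speckle and splicing protein genes, 6 had a peak in all 4 libraries, none was control-only, 6 were mixed and 13 had none. PRPF6, SRRM2, U2AF2 and SNRNP70, all components of the splicing machinery or its speckles, had the most covered DNA among the 6. SRRM2, a speckle scaffold, had 4262 and 3978 bp in the control and 1334 and 1979 bp in the lactate libraries. PRPF6 and SNRNP70 also had less in both lactate libraries than in either control library, beside the median ratio of 0.507 over coding genes given above. At U2AF2 the groups overlapped, with 1368 and 4304 bp in the control and 1830 and 2008 bp in the lactate libraries. Of 10 genes that act in processing or modifying RNAs such as MALAT1, 5 had a peak in all 4 libraries, 2 were mixed and 3 had none. Those with the most covered DNA were DGCR8, a partner of Drosha in microRNA processing, TUT1, POP1, a subunit of RNase P, and ELAC2, a nuclease that trims 3′ ends of tRNAs and of mascRNA. DGCR8 had 7643 and 6105 bp under peaks without lactate and 1773 and 3308 bp with it. ELAC2 had the opposite order, with 896 and 423 bp without lactate and 1108 and 929 bp with it. Over all protein-coding genes, 28.6% had a peak in all 4 libraries and 5.66% were control-only.

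Of 34 long noncoding RNA genes, MALAT1 and NEAT1 among them, 7 had a peak in all 4 libraries, 3 were control-only, 6 were mixed and 18 had none. The control-only genes were MALAT1, SNHG15, a snoRNA host gene, and UCA1. SNHG15 had 700 and 779 bp under peaks in the control libraries and UCA1 418 and 365 bp, both less than the 896 and 1101 bp of MALAT1. KCNQ1OT1, an antisense RNA gene of an imprinted cluster, had 3484 and 3470 bp in the control and 2775 and 2357 bp in the lactate libraries. MEG3, another imprinted gene, had 2289 and 5607 bp against 754 and 1288 bp, and GAS6-AS1 and LINC-PINT were also found in all 4. Over all long noncoding RNA genes of the table, 12.7% had a peak in all 4 libraries and 3.36% were control-only. The 3503 of them with a peak in both control libraries had a median ratio of lactate to control of 0.508.

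Of the other 135 genes within 1 Mb of the interval, 52 (38.5%) had a peak in all 4 libraries and 12 (8.89%) were control-only, against 14.7% and 3.45% of all RefSeq genes. The control-only genes included MEN1, a tumour suppressor gene, BRMS1, SNX32, RAB1B, LOC124902694 and MIR194-2HG. MIR194-2HG, a microRNA host gene, had 1986 and 2049 bp under control peaks and MEN1 520 and 1074 bp. PCNX3, EHD1, ATG2A and SLC22A12 had the most covered DNA among the 52, with 8295, 9344, 5766 and 5348 bp at PCNX3. None of the 135 genes was lactate-only, a pattern that 0.745% of all RefSeq genes had.

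Peaks do not measure transcription, so the labelled cell type could be checked only as counts of genes with the mark. Of 10 hepatocyte and hepatocellular carcinoma genes, HNF4A had a peak in all 4 libraries, APOA1 was control-only, 2 were mixed and 6 had none. HNF4A, a liver transcription factor gene, had 7668 and 6039 bp under control peaks and 2556 and 3048 bp under lactate peaks. Of 4 stromal genes, PDGFRB, COL1A1 and COL1A2 had a peak in every library.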

How the data were processed

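H4K5la peaks of 2 control and 2 lactate libraries were used. MACS2 2.2.6 (peaks), Bowtie2 2.3.4.2 (alignment), Trimmomatic 0.38, Picard 2.18.11 and SAMtools 1.9 are named, with hg38, per the submitters' processing notes; peak caller settings are not given in the sources used here. The authors deposited a peak list per library, with each peak's position and summit, its whole-number score, its fold over background, its -log10 p-value and its -log10 q-value. The deposited lists hold no read counts. The smallest deposited -log10 q was 2.00 to 2.02.

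Reads over each summit were recovered by searching, in each library, for the scaling factor that makes the deposited fold and -log10 p give whole reads. This held for 100% of peaks within 0.001 of the -log10 p, and up to 0.422% of peaks had more than 1 match. The recovery was tested on simulated data whose backgrounds all lay above that of the MALAT1 summit and above the most common background of each list. That test therefore does not cover summits with so low a background. Relative input depth came out as 1.00 for each control and 0.958 for each lactate library; replicates may therefore share an input, and spread between inputs may be missing from the SDs.

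Spans of 59098 genes were taken from RefSeq (GRCh38.p14), without exons; promoter sequences came from RefSeq. MALAT1 and FRMD8 had a promoter window. Named genes are the members, every gene of the interval, up to 6 control-only and 6 lactate-only genes and 4 genes with peaks in all 4 libraries from each list, by covered length, and the 3 genes nearest to each member by covered share. Some genes that this rule takes are not reported here. The members, gene lists and settings were chosen with earlier results of these data known. Other settings were a -log10 q of at least 5, equal numbers of peaks, flanks of 10 and 50 kb, joining, a reciprocal overlap, each library left out and a replicate block. Python 3.11.15, pandas 2.3.3, numpy 2.4.6, scipy 1.17.1 and matplotlib 3.10.9 were used.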

Additional observations from a re-analysis of the deposited data

How the results depend on the processing

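The ratio of covered length over the interval, 0.407 as deposited, was 0.461 with a -log10 q of at least 5 and 0.576 with 37951 peaks per library. The ratio of numbers of peaks, 0.548, was 0.680 and 1.13 under the same settings. At NEAT1 the ratio of 0.665 turned to 1.25 and 5.36, since fewer weak control peaks were kept. Spans chosen after seeing the data gave 0.425 for NEAT1 with 1 kb beyond its end and 0.391 for FRMD8 from its start in the promoter table. The MALAT1 ratio of 0 could not move under the settings run, which only removed peaks, left out a library or paired libraries. The 5 control-only regions became 2 with equal numbers of peaks, 3 when peaks within 1 kb were joined and 10 with a reciprocal overlap of 50%. Leaving out each library in turn gave 0.388 to 0.428 for covered length, 0.5 to 0.607 for numbers of peaks, 0.498 to 0.615 for FRMD8, 0.526 to 0.804 for NEAT1 and 6 to 8 control-only regions, the 8 without control replicate 2. With the replicate number as a replicate block, the mean of paired ratios was 0.407, 0.557, 0.557 and 0.658 for the interval's length, its number of peaks, FRMD8 and NEAT1, and no direction changed; the labels do not say that a number marks a shared origin. Flanks of 10 and 50 kb and joining moved the interval's ratios by less than the spread between replicates. A region without a peak may hold the mark below the threshold, and depth was lower with lactate.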
